A study of Cicer arietinum with 24 samples.

Results

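Transcript levels of 6 DNA demethylase genes of chickpea were examined in whole seeds at 7 stages of development, S1 to S7, and in leaves. The 6 genes are those that the study set beside the DNA methyltransferases, found there by a search of the gene annotation, and were taken here by their gene identifiers, 6 of the 28269 genes with a value. All material came from the small-seeded cultivar Himchana 1 grown in the field, with no treatment. In the stage names used for the large-seeded cultivar, S1, S2 and S3 cover early-, mid- and late-embryogenesis, S5 is mid-maturation and S7 late-maturation, with S4 and S6 between them, and leaves were picked from plants whose seeds were in mid maturation. Each of these 8 groups has 3 biological replicates, 24 samples in all, and the deposited values hold 1 FPKM value for the 3 replicates together (fragments counted relative to transcript length and to the number of mapped fragments, so that levels of different genes can be compared). No value has a replicate error, no difference could be tested, and the differences describe these 8 merged libraries only. A whole seed contains seed coat, embryo and, at the earlier stages, endosperm, and more cells of a kind cannot be told apart from more RNA per cell.

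DNA demethylases of plants are DNA glycosylases that cut 5-methylcytosine out of the DNA, after which base excision repair puts in an unmethylated cytosine. In *Arabidopsis*, DEMETER does so in the central cell of the female gametophyte before the endosperm forms and underlies parental imprinting there, and ROS1 keeps methylation from spreading into genes in vegetative tissue. Levels of DNA methylation thus depend on the methyltransferases that add the mark and on the demethylases that remove it. The sources used here give the 6 chickpea genes no individual names, so none of them is assigned to either of these *Arabidopsis* genes, their label as demethylases rests on the annotation alone, and no sequences or coordinates are given.

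As deposited, the 75th percentile of all loci lay between 10.7 and 11.7 FPKM in the 8 libraries, whereas the summed FPKM of genes differed by up to 3.55 times between libraries. The stage labels were examined with the gene lists that the study gives for successive stages of its large-seeded cultivar. The study cites these lists for genes of each process with regions whose DNA methylation differed between stages of that cultivar. Cell cycle genes, 318 in number, reached a median of 7.50 FPKM at S1 and 1.38 FPKM at S7, and of 1.94 FPKM in leaf. The 163 grain filling genes had their highest median at S5 (10.3 FPKM), and the 162 desiccation genes had theirs at S5 as well (13.7 FPKM), with 13.6 FPKM in leaf. No marker genes of seed tissues were examined, because the gene identifiers carry no names. The libraries of S3, S4 and S5 stood apart in 1 respect. Of 521 genes with 2 loci that both reached 5 FPKM, 93 had 1 locus higher at S3, S4 and S5 and the other locus higher in the other 5 libraries. Whether loci were quantified in the same way in these libraries was not tested.

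The 6 demethylase genes did not share 1 profile. *Ca_17547* was high at S3 to S5, *Ca_17326* and *Ca_17329* stood out at S5 only, *Ca_20137* and *Ca_08414* had their highest values at S6 and S7, and *Ca_07031* stayed below 1 FPKM throughout. The plot of FPKM by library shows these profiles. Of the 5 genes that reached 1 FPKM in a seed library, 3 had their highest seed value at S5, against 14.1% of the 19079 genes that reached 1 FPKM in a seed library. The other 2 had it at S7, as had 25.8% of those genes. The place of the highest value depended on scaling in 3 genes, since with libraries set to the same summed FPKM it was at S4 for *Ca_17547* and *Ca_20137* and at S2 for *Ca_08414*. With libraries scaled by the upper quartile it was at S4 for *Ca_17547* and at S3 for *Ca_08414*.

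**Figure D1:**
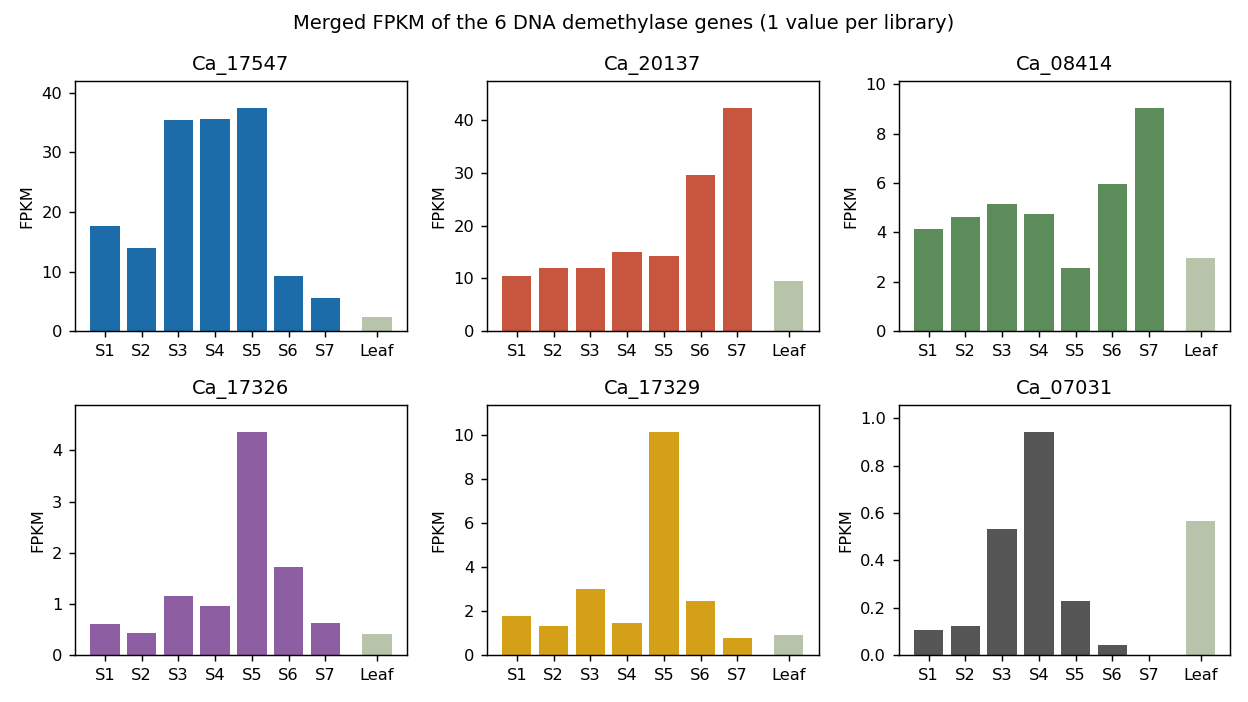
FPKM (y axis, linear from 0, a different range in each panel) of the 6 DNA demethylase genes at seed stages S1 to S7 and in leaf (x axis), 1 bar for each merged value of 3 replicates, without error bars. *Ca_17547* lies between 35.5 and 37.5 FPKM at S3 to S5, *Ca_17329* reaches 10.2 FPKM at S5, and *Ca_20137* reaches 42.3 FPKM at S7.

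*Ca_17547* had the highest values of the 6 genes at S1 to S5. Its level was 17.7 FPKM at S1, 14.0 at S2, 35.5 FPKM at S3, 35.7 at S4, 37.5 at S5, 9.31 at S6 and 5.63 FPKM at S7, against 2.37 FPKM in leaf. The values at S3, S4 and S5 are close to each other, and without replicates their order has no error to be judged by. As deposited, all of them exceed the other 5 libraries, an order found in 6.83% of the 19505 genes that reached 1 FPKM in a library. *Ca_17547* was the 1 member with this order. With libraries set to the same sum, its S5 value falls below S1 and S2 and the order is lost. Every seed stage was above leaf, and the highest seed value was 15.8 times that of leaf. Of 12212 genes that had 1 FPKM or more in each of the 8 libraries, *Ca_17547* exceeded 71.2% at S4 and 18.8% at S7, and 5.36% in leaf.

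*Ca_20137* was the second most abundant member at S1 to S5 and the most abundant at S6, S7 and in leaf. Its level was 10.5 FPKM at S1, 11.9 at S2, 12.1 FPKM at S3, 15.0 at S4, 14.2 at S5, 29.6 at S6 and 42.3 FPKM at S7, against 9.57 FPKM in leaf. As deposited, all seed stages were above leaf, and S6 and S7 were above all other libraries. With libraries set to the same sum, S5 falls below leaf and the highest seed value is at S4. The gene stood above 32.1% of the 12212 genes at S1, 40.9% at S5 and 61.2% at S7, and above 31.0% in leaf.

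These values of *Ca_20137* are sums of 2 loci that carry its identifier, and the 2 loci differed from each other. The first locus had 9.26 FPKM at S1, 10.6 at S2, 12.0 FPKM at S3, 14.7 at S4, 14.2 at S5, 7.95 at S6 and 19.1 FPKM at S7, against 1.27 FPKM in leaf. The second had 1.28 FPKM at S1, 1.33 at S2, 0.0333 FPKM at S3, 0.262 at S4, was listed at 0 at S5, and had 21.6 FPKM at S6 and 23.2 FPKM at S7, against 8.30 FPKM in leaf. Most of the FPKM of this gene at S6 and in leaf thus came from the second locus, and nearly all of it at S3 to S5 from the first. Taken alone, the first locus was lower at S6 than at S5 (7.95 against 14.2 FPKM), while the sum was higher. Loci were followed by their row, and the list of identifiers was the same in all files. Among 320 pairs of loci of 1 identifier that were at least 4-fold apart in every library, 318 had the same row higher in all 8 libraries. How Cufflinks divided fragments between overlapping or neighbouring loci is not known from these values, and its part in this difference was not tested.

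**Figure D2:**
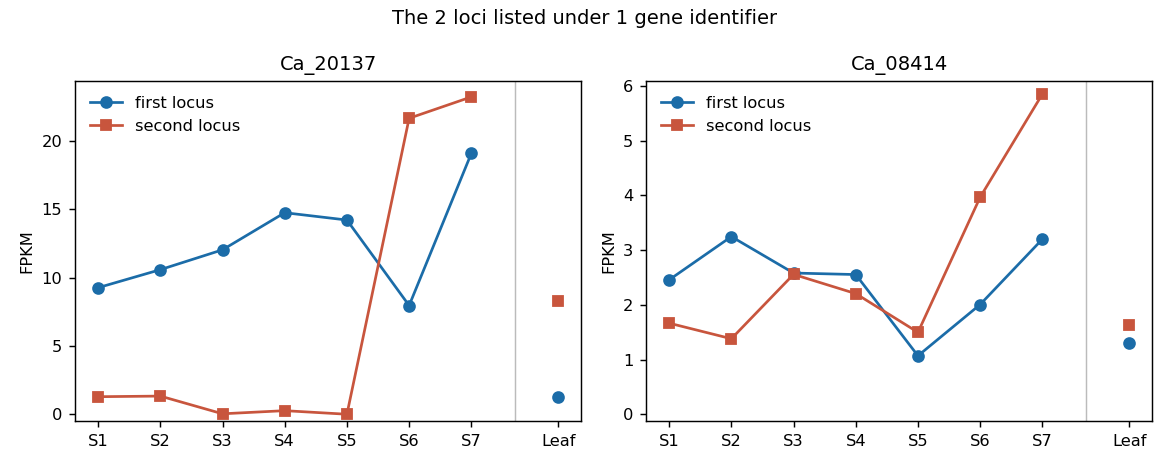
FPKM (y axis) of the first and the second locus listed under *Ca_20137* and under *Ca_08414*, at S1 to S7 (points joined by lines) and in leaf (points at the right). The second locus of *Ca_20137* lies at 1.33 FPKM or below at S1 to S5 and at 21.6 and 23.2 FPKM at S6 and S7.

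*Ca_08414* had a flatter profile with a dip at S5. It had 4.12 FPKM at S1, 4.63 at S2, 5.14 FPKM at S3, 4.76 at S4, 2.57 at S5, 5.97 at S6 and 9.05 FPKM at S7, against 2.95 FPKM in leaf. The S5 value was the lowest of the seed stages and the only one below leaf. This gene is also a sum of 2 loci. Its first locus ranged from 1.07 FPKM at S5 to 3.25 FPKM at S2, and its second from 1.38 FPKM at S2 to 5.85 FPKM at S7, so that S7 had the highest value of the second locus only. In the first locus S7 had 3.20 FPKM, close to S2. Both *Ca_08414* and *Ca_17547* are in the list of differentiation genes of the large-seeded cultivar, which the study cites for genes with differential methylation between its stages.

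*Ca_17326* and *Ca_17329* were low at most stages and had 1 high value each, at S5. *Ca_17326* had 0.597 FPKM at S1, 0.422 at S2, 1.14 FPKM at S3, 0.958 at S4, 4.37 at S5, 1.72 at S6 and 0.630 FPKM at S7, against 0.414 FPKM in leaf. *Ca_17329* had 1.79 FPKM at S1, 1.34 at S2, 3.01 FPKM at S3, 1.46 at S4, 10.2 at S5, 2.45 at S6 and 0.766 FPKM at S7, against 0.906 FPKM in leaf. In both genes S5 was the highest, and S3 exceeded its neighbours S2 and S4. Set against the 12212 genes expressed throughout, *Ca_17329* stood above 31.1% at S5, 0.409% at S4 and 5.18% at S6. It is not itself one of these genes. None of them lies below 1 FPKM in any library, so a value near 1 FPKM ranks near the bottom by definition. *Ca_17329* had the higher value in all 8 libraries, by 3.16 times at S2 and 1.22 times at S7 as the extremes, and by 2.19 times in leaf. Whether the 2 genes are similar enough in sequence to share fragments was not tested.

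*Ca_07031* was the least abundant member, with 0.106 FPKM at S1, 0.121 at S2, 0.535 FPKM at S3, 0.945 at S4, 0.226 at S5 and 0.0438 FPKM at S6. It was listed at 0 at S7, where an exact 0 can also be a failed estimate, and had 0.568 FPKM in leaf. Only the S4 value was above leaf. Since the depth of the libraries is unknown, values this low are of unknown precision, and its changes and correlations, which enter the medians of the 6 members, are of equally unknown precision.

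Changes between successive seed stages were calculated as differences of log2(FPKM + 1), which understates changes of low values, and counted at 2-fold. At 3 of the 6 steps no member reached this threshold. At S2 against S1, 0 members were 2-fold higher and 0 were 2-fold lower, against 4.29% and 2.41% of all genes. At S4 against S3, 0 were higher and 0 lower, against 2.39% and 2.29%. At S7 against S6, too, 0 were higher and 0 lower, against 1.39% and 3.22%, with *Ca_17329* nearest to the threshold at -0.97. These are the steps at which few genes of any kind changed 2-fold.

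The first step with a 2-fold change among the members was that from S2 to S3. *Ca_17547* had 35.5 FPKM at S3, against 14.0 FPKM at S2, a log2(FPKM + 1) change of 1.28. It was the 1 member that was 2-fold higher, against 5.67% of all genes, and 0 were lower, against 6.05%. The median change of the 6 members was 0.52, and that of all genes with at least 1 FPKM at either stage was 0.00. As deposited, none of the 6 was lower at S3 than at S2, but *Ca_20137* was nearly equal, with a change of 0.02. Relative to the median change of genes expressed throughout, it stood at -0.03. With libraries set to the same sum, *Ca_20137* and *Ca_08414* were lower at S3 than at S2. With libraries set to the same sum, the change of *Ca_17547* was 0.84 and no longer 2-fold.

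At S5 against S4, *Ca_17329* had 10.2 FPKM, against 1.46 FPKM, a change of 2.18, and *Ca_17326* had 4.37 FPKM, against 0.958 FPKM, a change of 1.46. These 2 members were 2-fold higher, against 7.57% of all genes, and 0 members were 2-fold lower, against 7.99%. As deposited, the most abundant members barely differed, with a change of 0.07 for *Ca_17547* and of -0.07 for *Ca_20137*. *Ca_08414* had a change of -0.69, and the median of the 6 members was -0.00. The higher values at S5 were therefore those of the 2 low members. With libraries set to the same sum, *Ca_17326* was at 0.60 and no longer 2-fold. The 4 members other than *Ca_17326* and *Ca_17329* were then 2-fold lower, *Ca_17547* and *Ca_20137* among them. That scaling moves the median of genes expressed throughout by -1.21 at this step.

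The step from S5 to S6 divided the members, as it did the genes in general. *Ca_17547* had 9.31 FPKM at S6, against 37.5 FPKM at S5, a change of -1.90, and *Ca_17329* had 2.45 FPKM, against 10.2 FPKM, a change of -1.69. These 2 members were 2-fold lower, against 17.1% of all genes, and *Ca_17326*, at -0.98, came just short of it. *Ca_20137* was 2-fold higher, with 29.6 FPKM at S6, against 14.2 FPKM at S5, a change of 1.01, as were 18.5% of all genes, and *Ca_08414*, at 0.97, came just short. Among genes with at least 1 FPKM at either stage, 30.4% were 2-fold higher and 28.2% 2-fold lower. The 12212 genes expressed throughout had a median change of 0.44 at this step. Relative to that shift, *Ca_20137* was only 0.57 higher, while *Ca_17547*, *Ca_17329* and *Ca_17326* stood at -2.34, -2.13 and -1.43, so that 3 members were then 2-fold lower. *Ca_20137* also missed 2-fold with libraries scaled to the same sum (0.70), by the upper quartile (0.52) or by the median ratio (0.86). Under each of these scalings 3 members were 2-fold lower. The shares of all genes relative to the median shift or under these scalings are not given. The counts of 3 therefore do not show whether the members were unusual.

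**Figure D3:**
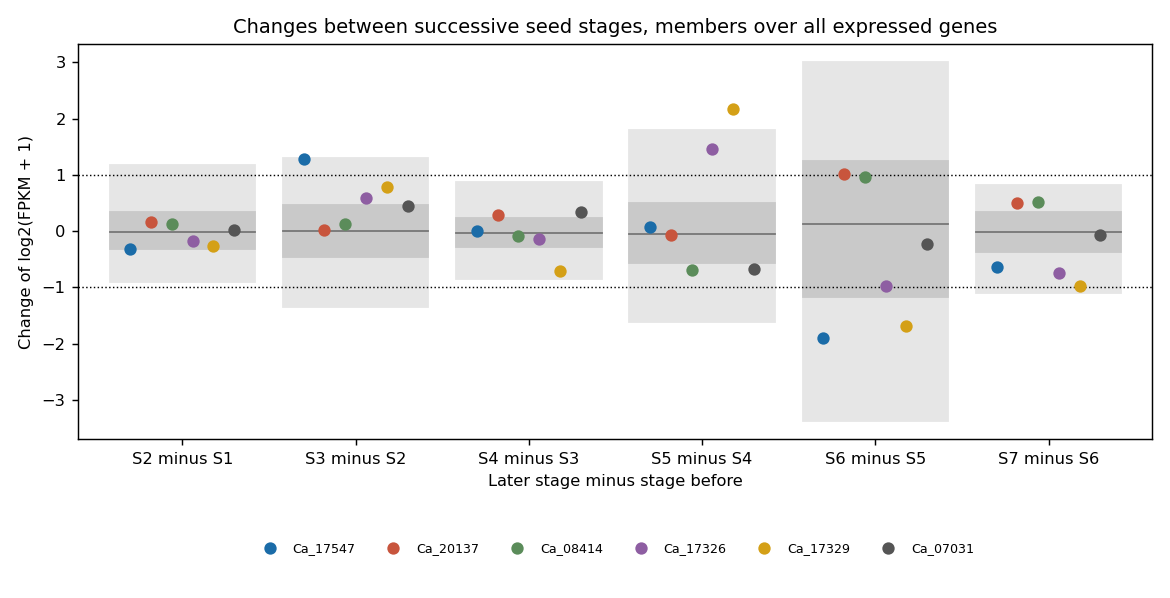
Change of log2(FPKM + 1) from each seed stage to the next (y axis) for the 6 members (coloured points), over the spread of all genes with at least 1 FPKM at either stage (light band, 5th to 95th percentile, dark band, 25th to 75th percentile, grey line, median). Dotted lines mark a 2-fold change, which *Ca_17547* passes at S3 (1.28) and S6 (-1.90), *Ca_17329* at S5 (2.18) and S6 (-1.69), *Ca_17326* at S5 (1.46) and *Ca_20137* at S6 (1.01).

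Over the whole of development, *Ca_20137* was 2-fold higher at S7 than at S1, with 42.3 FPKM, against 10.5 FPKM, a change of 1.91. *Ca_17547* was 2-fold lower, with 5.63 FPKM at S7, against 17.7 FPKM at S1, a change of -1.50. Each is 1 of 6 members, and 20.8% of all genes were 2-fold higher and 20.8% 2-fold lower between these stages. Genes expressed throughout had a median change of 0.49, and relative to it *Ca_20137* stood at 1.42 and *Ca_17547* at -1.99. With libraries set to the same sum, *Ca_20137* was at 0.35 and no longer 2-fold higher. As deposited, *Ca_17326* was close to its early level, with 0.630 FPKM at S7, against 0.597 FPKM at S1, both below 1 FPKM. Relative to the median change it stood at -0.46, and with libraries set to the same sum its S7 value falls below S1.

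As deposited, 3 of the 6 members had higher values than leaf in all 7 seed stages (*Ca_17547*, *Ca_20137* and *Ca_17326*). The same held for 21.5% of the 19505 genes that reached 1 FPKM in a library. For *Ca_17326* at S2 the values were nearly equal, 0.422 FPKM at S2 and 0.414 FPKM in leaf. No member, 0 of 6, was at least 2-fold higher in every seed stage on the log2(FPKM + 1) scale, against 3.00% of all genes, and 0 of 6 was 2-fold lower in every stage, against 7.76%. *Ca_17547* met this at S1 to S6, with changes between 1.61 and 3.51, and came just short at S7 with 0.98. With a pseudocount of 0.1 in place of 1 it met it at S7 as well. *Ca_20137* was 2-fold higher than leaf at S6 (1.53) and S7 (2.03) only, and *Ca_08414* at S7 (1.35) only. *Ca_17329* was 2-fold higher than leaf at S3 (1.07) and S5 (2.55), and *Ca_17326* at S5 (1.93). At S6 and S7, the genes expressed throughout were themselves higher than in leaf, by medians of 0.47 and 0.49. Relative to these medians, *Ca_08414* was at 0.86 at S7 and no longer 2-fold higher, and *Ca_17547* was at 0.49 at S7. *Ca_17326* was then at -0.28 at S7, below leaf. With libraries set to the same sum, too, *Ca_17326* at S7 falls below leaf, as does *Ca_20137* at S5.

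The summed FPKM of the 6 members was 34.9 at S1, 32.5 at S2, a higher 57.4 at S3, then 58.8 at S4, 69.0 at S5, 49.1 at S6 and 58.4 at S7, against 16.8 in leaf. As deposited, the sum was thus near the same level at S3, S4 and S7, but its makeup was not. The level of the sum depends on scaling. With libraries set to the same summed FPKM of all genes, S5, S6 and S7 all fall below each of S1 to S4, and S4 is the highest. *Ca_17547* made up 61.8% of the sum at S3, 54.3% at S5, 19.0% at S6 and 9.64% at S7, against 14.1% in leaf. *Ca_20137* made up 21.0% at S3, 20.6% at S5, 60.3% at S6 and 72.5% at S7, against 57.1% in leaf. In both shares S6 and S7 were closer to leaf than S1 to S5 were. *Ca_17329* and *Ca_17326* together made their largest contribution at S5, with 14.7% and 6.33% of the sum. Such shares depend on no scaling between libraries.

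The other genes of the pathway taken from the study are 6 methyltransferases, and their levels ran differently over the stages. *CaMET1* (*Ca_18432*), of the family that copies CG methylation onto newly made DNA strands, had 7.52 FPKM at S1 and 0.555 FPKM at S7, and 0.564 FPKM in leaf. *CaCMT3* (*Ca_23587*), whose family methylates CHG sites, had 31.7 FPKM at S1 and 0.0499 FPKM at S7, and *CaCMT2* (*Ca_17866*), whose family acts on CHH sites of heterochromatin, had 17.7 and 0.0347 FPKM. *CaCMT1* (*Ca_20580*) was at 14.9 FPKM at S5 and 0.439 FPKM at S6. By contrast, *CaDRM2* (*Ca_03062*), of the family that is guided to its sites by small RNAs, stayed between 14.5 and 21.4 FPKM in seeds, against 6.63 FPKM in leaf, and *CaDRM1* (*Ca_12577*) between 7.81 and 14.5 FPKM, against 7.34 FPKM in leaf. At S7 against S1, 4 of the 6 methyltransferases were 2-fold lower and 0 were higher, against 20.8% and 20.8% of all genes. Among the 17658 genes with at least 1 FPKM at either stage, 33.3% were lower and 33.3% higher. The medians of the change were -3.26 for the methyltransferases and -0.06 for the demethylases. That of all genes with at least 1 FPKM at either stage was 0.07, a minimum not applied to the other 2 sets. The demethylase median lies between *Ca_17326* (0.03) and *Ca_07031* (-0.15), both below 1 FPKM at S1 and at S7. The other members ranged from -1.50 (*Ca_17547*) to 1.91 (*Ca_20137*), so this median does not describe the members with higher values. The difference between these sets of genes was not tested.

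The ratio of summed demethylase to summed methyltransferase FPKM was 0.330 at S1 and 0.543 at S2. It then was 1.16 at S3, 1.04 at S4 and 1.48 at S5, followed by 1.65 at S6 and 2.13 at S7, and stood at 0.987 in leaf. Being formed within each library, it does not depend on how libraries were scaled to each other. The ratio was higher at each stage than at the stage before it, except at S4. Its increase from S1 to S3 goes with a higher demethylase sum (57.4 at S3, against 34.9 at S1) and a lower methyltransferase sum (49.5 at S3, against 106 at S1). From S5 to S7 both sums were lower, that of the demethylases at 58.4 FPKM at S7, against 69.0 at S5, and that of the methyltransferases at 27.5 FPKM, against 46.6. Without *Ca_17547* the ratio was 0.162 at S1, 0.442 at S3, 0.676 at S5 and 1.92 at S7, and 0.848 in leaf. With only the highest locus of each gene it was 1.31 at S7 and highest at S5, with 1.56.

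**Figure D4:**
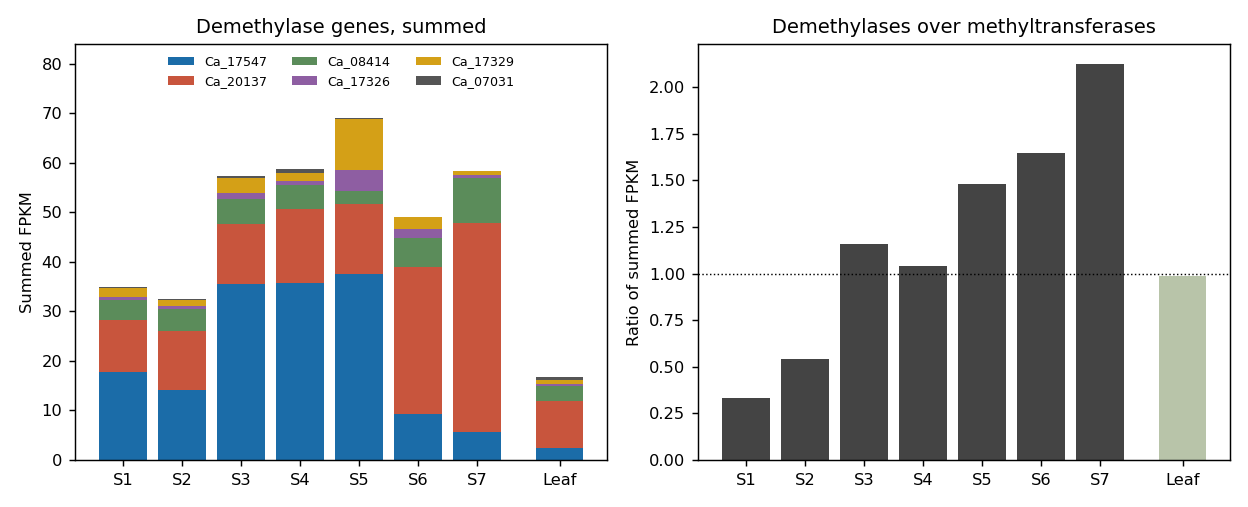
Left, summed FPKM of the 6 demethylase genes (y axis) at S1 to S7 and in leaf, each bar divided by gene; right, the ratio of this sum to the summed FPKM of the 6 methyltransferase genes, with a dotted line at 1. As deposited, the sum is highest at S5 (69.0 FPKM), which depends on the scaling of libraries. The ratio is lowest at S1 (0.330) and highest at S7 (2.13).

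How alike the members were among themselves was described by Pearson's r of log2(FPKM + 1) over the 8 libraries, for 15 pairs. The libraries are not replicates, and neighbouring stages share much of their expression, so r is a description only. *Ca_17326* and *Ca_17329* were the most alike, with r = 0.94 and Spearman's rho = 0.79. The likeness rests in part on S5, since r was 0.74 without it, and 0.71 without S5 and S6, the 2 libraries farthest from the median of *Ca_17326*. *Ca_20137* and *Ca_08414* came next with r = 0.79 and rho = 0.71, but without S6 and S7 r was 0.13. That relation therefore rests on the last 2 stages, and their second loci hold the highest values there. *Ca_17547* had r = 0.64 with *Ca_17329*, 0.53 with *Ca_17326* and -0.24 with *Ca_20137*. The highest r of *Ca_07031* with another member was 0.29, with *Ca_17547*.

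Genes outside the set with the most similar profiles by Pearson's r were sought in the same manner. For *Ca_17547* they were *Ca_01205* (r = 0.99), between 2.28 and 8.50 FPKM in seeds and at 1.44 FPKM in leaf, and *Ca_02552* (r = 0.99), with its highest value of 12.7 FPKM at S3 and a locus shared with *Ca_02553*. For *Ca_20137* they were *Ca_22505* and *Ca_06690* (r = 0.99 each), at 22.8 and 71.9 FPKM at S7, and this late profile was a common one, with 518 of 12044 genes compared at r of at least 0.95. *Ca_17329* had the least common profile, and its nearest genes were *Ca_14497* (r = 0.95), with 64.5 FPKM at S5 and at most 7.49 FPKM elsewhere, and *Ca_11275* (r = 0.94). Only 1 of 12824 genes reached an r of 0.95 with it. *Ca_17326* was closest to *Ca_08702* and *Ca_22891* (r = 0.98 each), of which *Ca_22891* had 37.7 FPKM at S5 and at most 3.23 FPKM elsewhere. *Ca_08414* was closest to *Ca_07863* (r = 0.97) and *Ca_16937* (r = 0.96), and *Ca_07031* to *Ca_18782* (r = 0.99) and *Ca_14908* (r = 0.96). The number of genes with an r of at least 0.95 was 52 for *Ca_17547*, 12 for *Ca_17326*, 8 for *Ca_08414* and 3 for *Ca_07031*, whose own values were all below 1 FPKM. By Spearman's rho the genes named here ranked between 1 (*Ca_14908*) and 293 (*Ca_07863*) among the genes compared with their member. The choice of nearest genes thus holds for Pearson's r and depends on the measure. The files give no names to these genes.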

How the data were processed

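Reads were cleaned with NGS QC Toolkit and aligned to chickpea genome sequence with TopHat by the authors, who obtained FPKM from Cufflinks. The deposited FPKM values hold 1 merged value per locus and group. How replicates were merged, how libraries were scaled, the versions of TopHat and Cufflinks and the use of strand are not given in the sources used here. The depth is unknown, since FPKM hold no counts.

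Loci with 1 gene identifier were summed by gene, and genes without such a locus took the loci they share, which gave 28269 genes. No member shares a locus with another identifier, and 2 members have 2 loci. Loci that carry no gene identifier (7268) were not used. Changes are differences of log2(FPKM + 1), counted at 2-fold. Genes named are the 6 members, 6 methyltransferases and, for each member, the 2 genes with the highest Pearson r among genes that have at least 1 FPKM in every library where the member has it and at least 5 FPKM in 1 library. Members and lists were chosen with earlier results of these data known. None of the members is found in the RefSeq table of assembly Cicar.CDCFrontier_v2.0, so no positions are given.

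Alternatives were pseudocounts of 0.1 and 0.01, scaling of libraries to the same sum, by the upper quartile or by the median ratio, a minimum of 1 FPKM, the highest locus in place of the sum, the ratio without *Ca_17547* and Spearman's rho. Changes relative to the median gene, the separate loci and correlations without some libraries were added after seeing the data. Counting and profile search were tested on simulated data. Python 3.11.15, numpy 2.4.6, pandas 2.3.3, scipy 1.17.1 and matplotlib 3.10.9 were used.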

Additional observations from a re-analysis of the deposited data

How the results depend on the processing

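No paired analysis was possible because replicates were merged before deposit, and leaving out single replicates was not possible for the same reason. Without replicates and depth, values below 1 FPKM, which include all of *Ca_07031*, are of unknown precision. The high value of *Ca_17329* at S5 and the low values of *Ca_17547* and *Ca_17329* at S6 stayed past 2-fold under all pseudocounts and scalings run, whereas the higher value of *Ca_20137* at S6 did not.

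With pseudocounts of 0.1 and 0.01, 4 members were 2-fold higher at S3 than at S2 under both, 1 was lower at S5 than at S4, 2 were higher and 4 lower at S6 than at S5, 2 were higher and 3 lower at S7 than at S1, and 1 was higher than leaf in every seed stage. At S7 against S6, 2 were lower with 0.1 and 3 with 0.01, and at S4 against S3, 1 was lower with 0.01. Low values count more at these settings, in all genes as in the members. The shares of all genes under the alternatives here are not given. These counts therefore show only how far the calls of the members depend on the setting, not whether they are unusual. After scaling to the same sum, which moves the median of genes expressed throughout by -1.21 from S4 to S5 and by -1.02 from S1 to S7, 0 members were higher at S3 than at S2, 1 was higher and 4 were lower at S5 than at S4, 0 were higher at S6 than at S5, and 0 were higher and 2 lower at S7 than at S1. The number of members with the highest seed value at S7 became 0 under this scaling and 1 with the upper quartile. With the upper quartile, 0 were higher at S6 than at S5 and 2 lower at S7 than at S1. *Ca_17547* had its highest value at S4 under both. With the median ratio, with the highest locus, and relative to the median gene, 0 were higher at S6 than at S5, and relative to the median gene 2 were lower at S7 than at S1.

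The ratio of demethylases to methyltransferases with the highest locus in place of the sum was 0.303, 0.499, 1.14, 1.02, 1.56, 1.32 and 1.31 from S1 to S7 and 0.835 in leaf, so that it was then highest at S5. Without *Ca_17547* it was 0.162, 0.308, 0.442, 0.409, 0.676, 1.34 and 1.92 from S1 to S7 and 0.848 in leaf.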

Other observations

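The 2 loci of *Ca_20137* led to a look at other genes with 2 loci of their own, chosen after these values were seen. Of the 521 such genes whose loci both reached 5 FPKM, 232 had the same locus higher in all 8 libraries, and 93 had the change of order at S3, S4 and S5 described above. The next most frequent pattern, in 39 genes, set S5 apart from the other 7 libraries. The pattern of *Ca_20137*, with 1 locus higher at S1 to S5 and the other in the remaining libraries, was found in 6 of the 521 genes, itself included. That of *Ca_08414*, with 1 locus higher at S1 to S4, was found in 2. *Ca_08414* itself is not among the 521, since its first locus reached only 3.25 FPKM. The 3 libraries of S3, S4 and S5 are also those in which, as deposited, *Ca_17547* had its highest values and the second locus of *Ca_20137* its lowest. *Ca_17547* has 1 locus under its identifier, and the part of the quantification of loci in its values was not tested.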
